A study of Mus musculus with 8 samples.

Results

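Cytokines and chemokines are the secreted messengers through which a memory CD8 T cell acts on other cells. Interferon gamma and tumour necrosis factor act on macrophages and infected cells through their own surface receptors, the chemokines CCL3, CCL4, CCL5 and XCL1 attract myeloid cells, T cells, NK cells and dendritic cells, and interleukin-2 and interleukin-10 feed back on growth and inflammation. In resting memory CD8 cells many of these genes are held ready for fast transcription after antigen contact, and CCL5 messenger RNA is stored at a high level.

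The genes examined here were the 9 effector cytokine and chemokine genes Ifng, Tnf, Ltb, Ccl3, Ccl4, Ccl5, Xcl1, Il2 and Il10. They were found by their symbol in the platform annotation, which gave 1 probe set for each, 9 of 45101 probe sets, and 9 of 18194 genes with a probe set of their own. A further probe set that the annotation shares between Il2 and another gene was left out. The filter on low signal kept 8 of the 9 and removed Il2.

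The signals came from 8 arrays of sorted CD8 T cells, a clonal expansion and a polyclonal memory sample from each of 4 aged female mice. Mice 1 and 2 were 20 months old, mice 3 and 4 were 23 months old, and mice 1 to 3 were of strain C57BL/10SnJ and mouse 4 of B10.BR. The labels name no engineered allele and no agent for any animal, and all cells were frozen straight after sorting from spleen and lymph nodes, without culture. Every sample was sorted as positive for CD8 and CD122 and negative for MHC class II. An age-associated clonal expansion is a large population that descends from 1 T cell. Here it was marked only by its T cell receptor V beta chain, while its polyclonal partner lacked that chain. Each expansion sample thus stands for the expansion of 1 mouse, and other cells with the same chain would be included. By the labels, expansion 1 belonged to a subclass with high integrin alpha4 and expansions 2, 3 and 4 to a subclass with low integrin alpha4, and these subclasses are kept apart below. The descriptions that give the subclass number expansions 3 and 4 as 4 and 5, unlike the titles, and call both alpha4-low. The numbers used here are those of the titles. The alpha4-high subclass has 1 array and therefore no replicate.

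Sort purity was 91, 95, 96 and 98% in expansions 1 to 4, and 97, 75, 66 and 97% in their polyclonal partners. The 7 CD8 T cell marker genes with a probe set were above background on all 8 arrays. Background was taken on each array as the 95th percentile of 27 bacterial control probe sets that had not been spiked in, and lay between 33.7 and 61.9. The MHC class II gene H2-Aa was above background on all 8 arrays too, between 302 in expansion 4 and 1374 in expansion 1. The scanner record of expansion 4 differed from that of the 7 other arrays, and what goes with that record cannot be told apart from what goes with expansion 4. Signals are linear and scaled by array, so less RNA of a gene per cell and fewer cells that carry it cannot be told apart. Levels are compared within a probe set only.

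Promoter sequence was at hand for 6 of the 9 genes, with none for Ccl4, Ccl5 and Il10, and is shown for 4 of them. Ltb and Ifng are shown because their signals varied most between arrays, Tnf because it is the direct neighbour of Ltb on chromosome 17, and Ccl3 because its difference between subclasses had the smallest p among the members. Each sequence holds the 250 bases before the transcription start in the RefSeq annotation of GRCm38.p6, written 5′ to 3′ on the strand of the gene. Capitals mark matches on either strand to GGAAA, the core of sites for NFAT, a factor switched on by T cell receptor signals, and to a form of the NF-kappaB site, GGGA and TTCC with any 2 bases between them. These motifs can overlap. TGANTCA, the AP-1 site, was searched as well and was in none of the 4. Ifng spans chr10:118440796-118441045 on the plus strand, Tnf chr17:35202008-35202257 on the minus strand, Ltb chr17:35194257-35194506 on the plus strand and Ccl3 chr11:83649379-83649628 on the minus strand.
Ifng: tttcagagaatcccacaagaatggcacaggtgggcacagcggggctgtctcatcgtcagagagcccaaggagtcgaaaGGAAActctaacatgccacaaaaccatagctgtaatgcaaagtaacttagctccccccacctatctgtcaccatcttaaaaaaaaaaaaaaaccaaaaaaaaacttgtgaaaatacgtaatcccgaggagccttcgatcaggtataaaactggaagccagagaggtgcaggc
Tnf: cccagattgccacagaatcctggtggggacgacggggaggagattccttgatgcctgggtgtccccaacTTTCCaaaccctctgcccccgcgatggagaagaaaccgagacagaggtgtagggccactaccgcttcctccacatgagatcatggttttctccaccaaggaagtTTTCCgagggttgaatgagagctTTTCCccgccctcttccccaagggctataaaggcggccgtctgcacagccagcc
Ltb: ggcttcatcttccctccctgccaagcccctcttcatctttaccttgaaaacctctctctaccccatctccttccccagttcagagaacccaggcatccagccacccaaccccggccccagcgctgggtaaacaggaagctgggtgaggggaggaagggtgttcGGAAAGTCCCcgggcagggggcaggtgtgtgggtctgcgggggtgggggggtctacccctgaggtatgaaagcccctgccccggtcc
Ccl3: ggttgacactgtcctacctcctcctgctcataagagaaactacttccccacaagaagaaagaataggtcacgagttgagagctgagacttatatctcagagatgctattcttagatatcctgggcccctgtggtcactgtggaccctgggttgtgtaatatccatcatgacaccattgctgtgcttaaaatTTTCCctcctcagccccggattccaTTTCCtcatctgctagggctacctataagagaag

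GGAAA had 1 match in the Ifng window, 3 in that of Tnf, 1 in that of Ltb and 2 in that of Ccl3. Of 32851 promoter windows of the same length in the table, 55.6% hold it. The NF-kappaB form had 1 match, in Ltb, where it overlaps the GGAAA match, and it is held by 1.21% of all windows. TGANTCA is held by 6.75%. These matches describe the letters and are no evidence of a bound factor.

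Ifng encodes interferon gamma, the cytokine by which CD8 cells activate macrophages and raise antigen presentation. Its signal was 5875 in the alpha4-high expansion and 3487 in its polyclonal partner. In the alpha4-low expansions 2, 3 and 4 it was 15926, 701 and 558, and in their partners 10780, 3202 and 3395. Mouse 2 was the highest for both of its samples. Against its own partner, Ifng was 1.68-fold higher in expansion 1, 1.48-fold higher in expansion 2, 4.54-fold lower in expansion 3 and 6.04-fold lower in expansion 4. The alpha4-low expansions thus spread over 28.6-fold for this gene, against 3.37-fold among the 4 polyclonal samples, and the groups overlap. The mean alpha4-low difference was -1.41 on the log2 scale (SE 0.55, 95% interval -2.60 to -0.21 before adjustment), and it did not pass over all probe sets (limma adjusted p = 0.939). Without pair 2 it was -2.39 and without pair 4 it was -0.81, so the size rests on which pair is counted. Egr1, an immediate early transcription factor gene, also had its highest signals in the samples of mouse 2, 5735 in the expansion and 5685 in the partner, with the other arrays between 623 and 3103. Its relative Egr2 did not share this pattern, with 505 and 609 in mouse 2 and its highest signals in polyclonal sample 3 (1643) and expansion 1 (1498). The part of Egr1 in the Ifng level was not tested.

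Tnf and Ltb encode tumour necrosis factor and lymphotoxin beta, related membrane proteins of the TNF family. Lymphotoxin beta joins with lymphotoxin alpha on the lymphocyte surface and signals to stromal cells of lymphoid organs. Tnf was low throughout. Its signal was 18.2 in expansion 1 and 14.5 in its partner, both under background, then 173, 91.4 and 68.6 in the alpha4-low expansions 2, 3 and 4 and 230, 91.7 and 108 in their partners. Both samples of mouse 1 were the lowest of the 8, and expansion 3 and its partner were equal to within 0.01 on the log2 scale. The mean alpha4-low difference of Tnf was -0.34 (SE 0.53, limma adjusted p = 0.994), with a 95% interval of -1.50 to 0.82.

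Ltb had the largest spread of all members. It read 6060 in polyclonal sample 2 and 1711 in polyclonal sample 3, but only 162 and 63.8 in polyclonal samples 1 and 4. The expansions lay closer together, with 476 in the alpha4-high expansion 1 and 325, 144 and 117 in the alpha4-low expansions 2, 3 and 4. Ltb was therefore 18.4-fold lower than its partner in expansion 2 and 11.5-fold lower in expansion 3, but 1.78-fold higher in expansion 4 and 2.88-fold higher in expansion 1. The polyclonal samples differed among themselves by 95.0-fold. The mean alpha4-low difference was -2.30 (SE 0.75) and did not pass (limma adjusted p = 0.828).

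The high Ltb values belong to the polyclonal samples of lowest sort purity, 75% and 66%. With purity as a covariate, the alpha4-low difference of Ltb was 0.51 (SE 0.87) in place of -2.30 (SE 0.75). That value leans on pair 4, where Ltb was at 0.83, the only alpha4-low pair whose samples were close in purity. Pair 4 is also the B10.BR mouse and holds the array with the other scanner record, so purity, strain and scan cannot be told apart. The other alpha4-low values with purity as a covariate share this limit. Without pair 4, which left the pairs with the samples of 75% and 66% purity, Ltb passed with a difference of -3.86 (limma adjusted p = 3.75e-06). That difference rests on pairs 2 and 3 alone, and 157 of 22518 probe sets passed in this fit, against 12 in the main fit. Markers of cells that a sort could let through were read beside it. Cd4, which defines helper T cells, read 43.9 in polyclonal sample 2, just over its background of 43.6, and 101 in polyclonal sample 3. On the other 6 arrays it read between 2.80 and 17.4, under background. Foxp3 and Cd40lg read 42.2 and 44.3 in polyclonal sample 2, near background, and 119 and 131 in polyclonal sample 3. Zbtb7b read 146 and 68.6 in these samples, the latter its lowest of the 8 arrays. Of the whole CD4 T cell list of 4 genes, the summed signal was 277 and 419 in these samples and between 181 and 345 on the rest. The B cell receptor component Cd79a read 148 and 93.8 there and between 24.4 and 74.8 elsewhere. The summed signal of the 7 B cell genes was 4509 in polyclonal sample 2, the highest, but 2063 in polyclonal sample 3, the lowest of the 8. The largest part of both sums was Cd22, at 3385 and 1027, itself the highest and the lowest of the 8. Above background were 5 and 6 of the 7 genes in these samples, and between 4 and 6 on the rest. No marker gene of either list was listed at 0. The part of purity and of these cells in the Ltb values was not tested.

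By a fixed rule, the 3 genes whose log2 signal ran most like Ltb over the 8 arrays, among 10407 genes, were Ly9 with a Pearson r of 0.98, Erp29 with 0.98 and Ier2 with 0.98. Ly9 encodes a SLAM family receptor of lymphocytes, and Ier2 is an immediate early gene. Ly9 read 1833 and 733 in polyclonal samples 2 and 3, and between 92.0 and 508 elsewhere. For Ifng the closest were Anapc1 (0.96), which encodes a subunit of the anaphase-promoting complex, then 9530082P21Rik (0.96) and Cep135 (0.95). For Tnf they were Bora (0.96), Abcb9 (0.96) and Neurl3 (0.95). Arrays of the same mouse are not independent, and with 8 points among so many genes such values describe the pattern only.

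**Figure D1:**
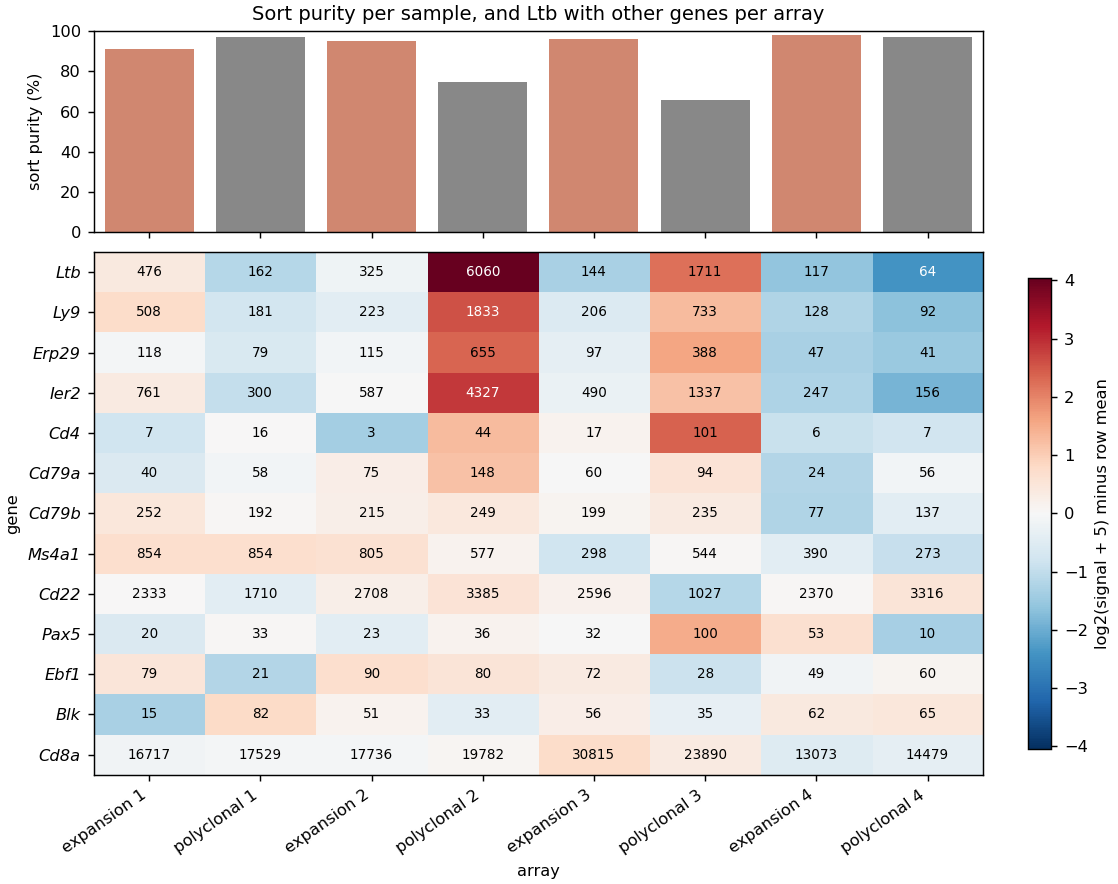
The upper bars give sort purity in percent for each sample, and the lower grid gives the signal (printed in each cell) with a colour for log2(signal + 5) minus the mean of its row. Ltb, Ly9, Erp29 and Ier2 are highest in polyclonal samples 2 and 3, the samples of 75% and 66% purity. Cd4, the only gene of its list shown, is highest there too at a low level. Cd22 is highest in polyclonal sample 2 and lowest in polyclonal sample 3.

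CCL3 and CCL4 are close relatives, encoded by neighbouring genes on chromosome 11, that attract monocytes and T cells. Ccl3 read 449 in the alpha4-high expansion 1, the highest of the 8 arrays, against 156 in its partner. In the alpha4-low expansions 2, 3 and 4 it read 135, 98.0 and 103, and in their partners 236, 425 and 135. The order of levels was thus the alpha4-high expansion, the polyclonal samples at 238 ± 132 (SD, n = 4) and the alpha4-low expansions at 112 ± 20.0 (SD, n = 3), with the highest alpha4-low value and the lowest polyclonal value both at 135. Ccl3 was 2.81-fold higher than the partner in expansion 1 and lower in 3 of 3 alpha4-low pairs, by 1.72-, 4.17- and 1.29-fold. The mean alpha4-low difference was -1.07 (SE 0.46), which did not pass (limma adjusted p = 0.963), and it was -0.57 without pair 3 and -0.16 with sort purity as a covariate.

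Ccl4 read 361 in expansion 1 against 97.0 in its partner, the lowest of the 8 arrays. In expansions 2, 3 and 4 it read 593, 122 and 173, and in their partners 450, 262 and 253. The alpha4-low expansions spread on both sides of the alpha4-high one, and polyclonal samples averaged 265 ± 144 (SD, n = 4). Against its partner, Ccl4 was 3.59-fold higher in expansion 1, the largest rise of any member in that pair, 1.31-fold higher in expansion 2, 2.10-fold lower in expansion 3 and 1.45-fold lower in expansion 4. The mean alpha4-low difference was -0.40 (SE 0.44, limma adjusted p = 0.989), and it ranged from -0.80 without pair 2 to -0.07 without pair 3.

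CCL5, or RANTES, is a hallmark product of memory CD8 cells. The Ccl5 probe set was bright on every array, at 37708 in the alpha4-high expansion, at 31161, 49242 and 22775 in the alpha4-low ones and at 26536, 42268, 32981 and 23898 in polyclonal samples 1 to 4. It varied least of the 9 genes, with an SD of 0.40 on the log2 scale over the 8 arrays against 2.17 for Ltb. The 3 groups averaged close to each other and overlapped. The alpha4-low difference was 0.02 (SE 0.31, limma adjusted p = 0.999), and its 95% interval from -0.65 to 0.69 leaves room for moderate changes either way. Its sign turned with quantile normalization, to -0.25.

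XCL1, or lymphotactin, draws dendritic cells that carry the receptor XCR1. Xcl1 read 1247 in expansion 1, the highest of all arrays, against 623 in its partner. The alpha4-low expansions 2, 3 and 4 read 611, 459 and 712 and their partners 540, 461 and 425. The alpha4-low expansions at 594 ± 127 (SD, n = 3) and the polyclonal samples at 512 ± 88.4 (SD, n = 4) overlapped. Xcl1 was the only tested member besides Ccl5 whose mean alpha4-low difference was positive, at 0.30 (SE 0.41, limma adjusted p = 0.990). It was 0.09 without pair 4. Pair 1 showed a 1.99-fold rise.

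Il10 encodes interleukin-10, an inhibitor of macrophage and dendritic cell activation. Il10 read 203 in the alpha4-high expansion 1, the highest of the 8 arrays, and 65.7 in its partner, the lowest. In expansions 2, 3 and 4 it read 70.2, 94.8 and 109, each below its partner at 94.1, 158 and 147. The 3 alpha4-low differences were alike, with a mean of -0.51 ± 0.18 (SD, n = 3), but the change did not pass (limma adjusted p = 0.989). In pair 1 it was higher by 2.95-fold.

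Il2, the T cell growth factor gene, did not pass the filter on low signal and was not tested. Its signals in expansions 1 to 4 were 3.45, 85.3, 35.1 and 51.2, and in their partners 6.24, 59.1, 33.4 and 61.2. Only the samples of mice 2 and 4 were above background, so that 4 of 8 arrays measured it. In these 2 pairs the expansion was 1.41-fold higher in one and 1.18-fold lower in the other.

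NK cells, which carry CD122 but in the mouse no CD8, and which also make interferon gamma and these chemokines, were followed by 5 marker genes. Their summed signal was 5987 in expansion 1, 2068, 402 and 4778 in expansions 2, 3 and 4, and 3234, 21749, 2235 and 32640 in polyclonal samples 1 to 4. It was thus lower than the partner in the 3 alpha4-low expansions and higher in the alpha4-high one. Most of it came from Klra8 and Klre1, receptor genes that memory CD8 cells can also carry. Of the 4 tested genes of the list, 3 were lower in 3 of 3 alpha4-low pairs. Beside them stand 15.0% of all tested probe sets, counting every probe set and not 1 per gene. The median difference of the 4 was -2.09. Fcer1g went the other way in pairs 3 and 4, at 61.9 and 54.1 against 45.5 and 16.7. Of these values, those of expansion 3 and polyclonal sample 4 were under background. In pair 2 it read 77.4 against 120. In pair 1 Klra8 was lower, at 49.1 against 441, and Klre1 higher, at 5609 against 2589. Tyrobp, an adaptor gene of NK cell receptors, was above background on 6 arrays and read 188 against 128 in pair 1, and 100, 34.4 and 5.66 against 151, 67.5 and 131 in pairs 2, 3 and 4. Ncr1, an NK cell receptor gene, read between 1.60 and 32.4, under background on all 8 arrays. Of the 9 macrophage and monocyte genes, Csf1r, Lyz2, Cd68 and Mrc1 read 1373, 1128, 248 and 181 in expansion 1, each the highest of the 8 arrays. In its partner they read 689, 541, 79.0 and 57.6. Cybb, Adgre1 and Ctss went the other way in pair 1, at 376, 99.8 and 27264 against 472, 116 and 32273. Cd14 and Itgam were under background in both samples of that pair. The part of NK cells and of myeloid cells in the member values was not tested.

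**Figure D2:**
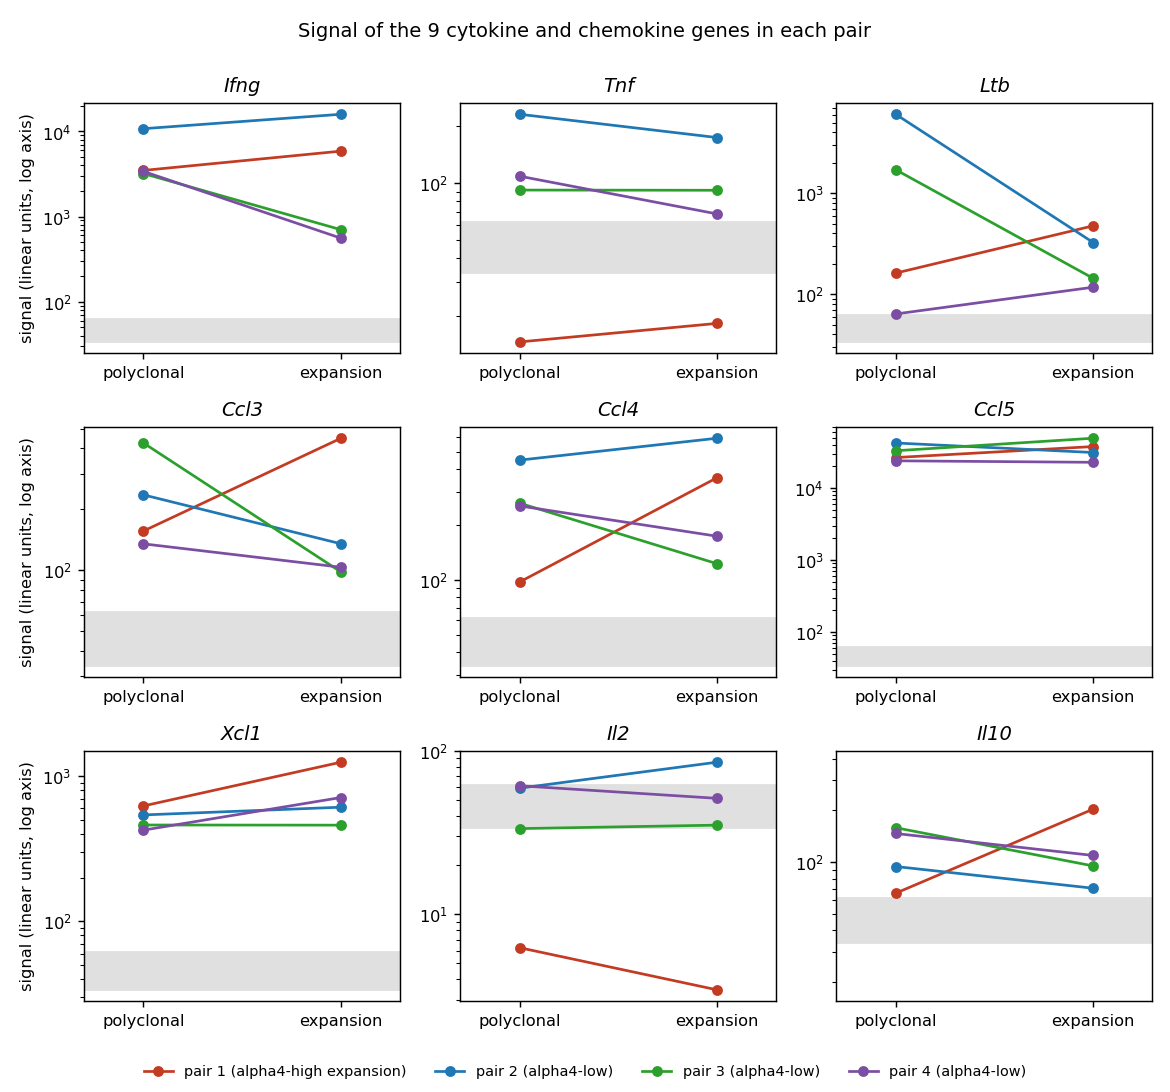
Each panel shows 1 gene, with its signal on a log axis in the polyclonal sample (left) and the expansion (right) of each mouse joined by a line; the grey band spans the background levels of the 8 arrays. Red lines (pair 1) rise for every gene but Il2, Ltb falls steeply in pairs 2 and 3, and Tnf and Il2 of mouse 1 lie under the band.

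The first comparison set the 3 alpha4-low expansions against their polyclonal partners. None of the 8 tested members passed in limma (0 of 8), where 0.0533% of all 22518 tested probe sets did. At an unadjusted p under 0.05 there were 3 members (Ltb, Ifng and Ccl3), all lower, beside 5.11% of all probe sets in either direction and 3.91% lower. The mean difference was negative for 6 of 8 members, as for 55.5% of all probe sets. In pair 4 alone, looked at after seeing the data, 6 of 8 members were lower, but not the same ones. Ltb was higher there (0.83) and Ccl5 lower (-0.07). Tnf, Ccl3 and Il10 were lower in 3 of 3 pairs, as were 15.0% of all probe sets, although for Tnf the difference in pair 3 was near 0. Higher in 3 of 3 pairs were 0 members, beside 9.99%. The median difference of the members was -0.46, against -0.07 over all tested probe sets. No member separated the alpha4-low expansions from their partners without overlap (0 of 8), where 4.92% of all probe sets lay wholly below and 3.19% wholly above. In a fit with 1 difference for all 4 pairs, 0 of 8 members passed, where 0.0% of all probe sets did, and 0 had an unadjusted p under 0.05, against 3.25% of all (2.3% lower).

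In the single alpha4-high pair, which has no replicate check, all 8 tested members were higher in the expansion, as were 53.8% of all tested probe sets. Tnf counts among the 8 although both of its signals in this pair were under background. Ccl4, Il10, Ltb and Ccl3 were at least 2-fold higher, 4 of 8 members, beside 12.0% of all probe sets, and 0 were at least 2-fold lower, beside 9.52%. The median difference of the members was 1.24 in this pair against 0.06 over all. For the alpha4-low pairs 2, 3 and 4 it was -0.40, -0.89 and -0.39, against -0.22, 0.01 and 0.00 over all. At least 2-fold lower were 1 member in pair 2 (Ltb), 4 in pair 3 (Ltb, Ifng, Ccl3 and Ccl4) and 1 in pair 4 (Ifng), beside 20.7, 14.2 and 7.27% of all probe sets. At least 2-fold higher were 0 members in each of these pairs, beside 7.83, 11.7 and 9.65%.

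**Figure D3:**
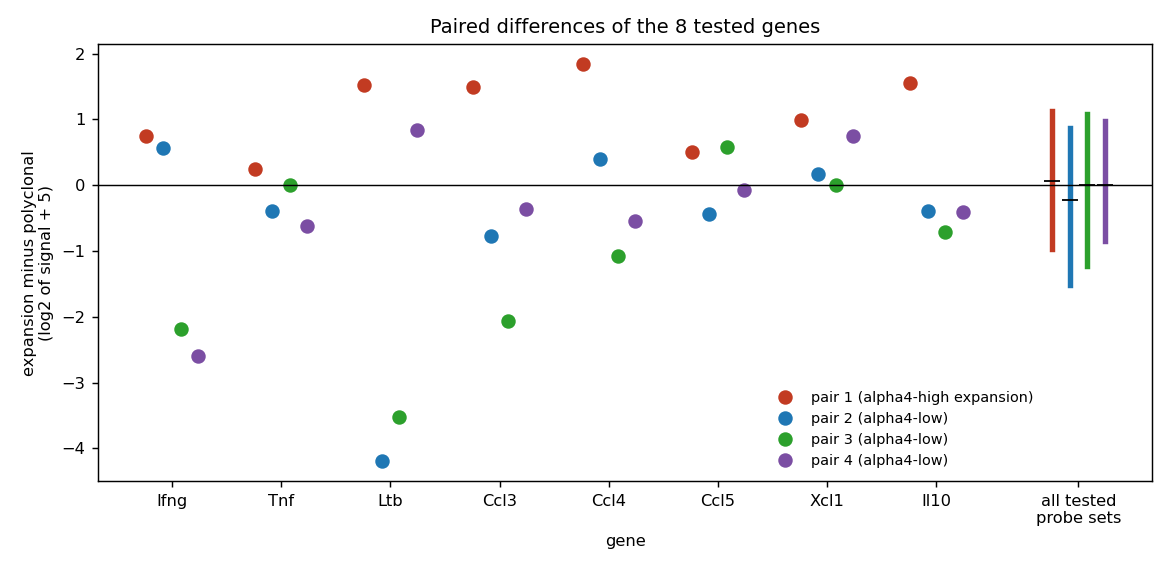
Points give the expansion minus the polyclonal sample of each pair on the scale of log2(signal + 5) for the 8 tested genes, and the bars at the right span the 10th to the 90th percentile of all tested probe sets in each pair, with the median as a tick. The red points of pair 1 lie above 0 for all 8 genes, that of Tnf from signals under background. The blue and green points of Ltb lie below -3.

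The second comparison was between the subclasses, taking the alpha4-low mean minus the value of the alpha4-high pair and assuming that the lone pair varies like the others. No member passed (0 of 8), beside 0.0533% of all probe sets, and 4 of 8 (Ccl3, Ccl4, Ltb and Il10) had an unadjusted p under 0.05, all lower, beside 6.57% in either direction and 4.06% lower. The difference was negative for 8 of 8 members, as for 54.3% of all probe sets, with a median of -2.11 against -0.10. Ccl3 had the smallest p, with a difference of differences of -2.56 (SE 0.92, limma adjusted p = 0.553), followed by Ccl4 at -2.25 (SE 0.87, limma adjusted p = 0.610). Ltb was at -3.83 (SE 1.49, limma adjusted p = 0.622), Il10 at -2.06 (SE 0.92, limma adjusted p = 0.727) and Ifng at -2.16 (SE 1.10, limma adjusted p = 0.826). For Xcl1, Tnf and Ccl5 it was -0.69, -0.59 and -0.48. The Tnf value rests in part on 2 signals under background. The difference of Ltb passed when pair 3 was left out (-3.21, limma adjusted p = 0.0360) and when pair 4 was (-5.39, limma adjusted p = 7.31e-04). With sort purity as a covariate it was -0.02 (SE 1.39) in place of -3.83. The same covariate took Ccl3 to -1.33 and Xcl1 to -0.09, while Ccl4 was at -2.03, Il10 at -1.86 and Ifng at -2.94. All these purity values lean on pair 4 as well, so purity, strain and scan cannot be told apart in them.

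Expansion 1 was above all 3 alpha4-low expansions for Ltb, Ccl3, Xcl1 and Il10, 4 of 8 members, as it was for 22.1% of all probe sets. It was the highest of all 8 arrays for Ccl3, Xcl1 and Il10, 3 of 8, beside 11.6%. Ccl3, Il10 and Tnf were higher in pair 1 and lower in 3 of 3 alpha4-low pairs, a pattern of 8.96% of all probe sets.

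**Figure D4:**
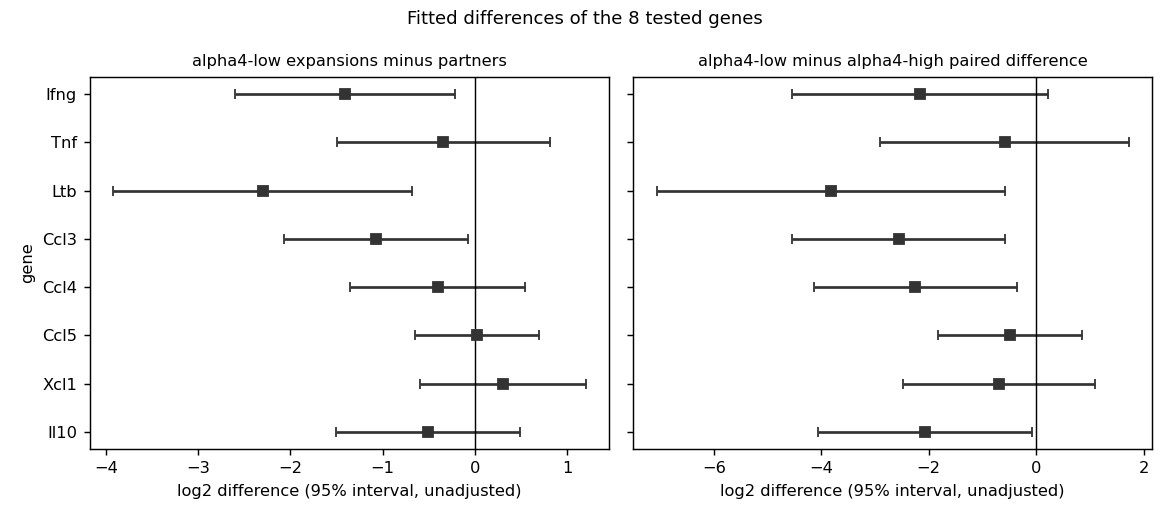
Squares give the fitted log2 difference of each tested gene with its 95% interval before adjustment over probe sets, at the left for the alpha4-low expansions against their partners and at the right for the alpha4-low minus the alpha4-high paired difference. The intervals of Ifng, Ltb and Ccl3 lie below 0 at the left and those of Ltb, Ccl3, Ccl4 and Il10 at the right, and none passed after adjustment.

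Genes that work with the members were read from 9 lists, on the brightest tested probe set of each gene. None of them passed the threshold in either comparison (0 higher and 0 lower). Over all 10407 genes the median was -0.03 in the alpha4-low comparison and -0.09 for the difference between subclasses. Of these genes, 5435 were lower and 4972 higher in the alpha4-low expansions. Past the threshold there were 1 higher and 6 lower in that comparison, and 4 higher and 5 lower between subclasses. Other cytokines that T cells can make had 10 of 18 tested genes higher and 8 lower in the alpha4-low expansions, with a median of 0.12. Among them Tnfsf13b, the gene of the B cell survival factor BAFF, had a difference of -2.49 (limma adjusted p = 0.678), a further probe set giving -0.67, and Il21, the gene of a cytokine for B and CD8 cells, one of -1.31, with expansions 2 and 4 under background. Csf1, a macrophage growth factor gene, was at 1.03 (limma adjusted p = 0.983) with a positive difference in all 4 pairs, and was under background in both samples of mouse 2. Tnfsf13b read 1267 in the alpha4-high expansion against 163 in its partner, and 49.7, 9.19 and 65.6 in the alpha4-low ones, with expansions 2 and 3 under background. Other chemokines had 8 of 13 lower and a median of -0.12. Cxcl10, an interferon-induced attractant of T cells, had a difference of -1.51 (limma adjusted p = 0.886) and a difference between subclasses of -2.94, with expansions 2 and 4 under background. Ccl27a, a chemokine gene, was at 1.01 (limma adjusted p = 0.975), with polyclonal samples 1, 2 and 4 under background.

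The receptors of the members had 5 of 7 tested genes lower and a median of -0.20 in the alpha4-low comparison. Ifngr1, the ligand-binding chain of the interferon gamma receptor, was at -0.26, Tnfrsf1b, the TNF receptor of lymphocytes, at -0.51 and Il10ra at -0.41, its further probe set at -1.26. Il2ra, the high-affinity chain for interleukin-2, read 2.56 in expansion 1, under background, against 57.5 in its partner.

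Signalling and target genes of interferon gamma had 12 of 17 lower and a median of -0.36. In 3 of 3 pairs 8 of 17 were lower, beside 15.0% of all tested probe sets. That share counts every tested probe set, and the share over the brightest of each gene was not computed. Iigp1, an interferon-induced GTPase gene, read 136, 279 and 178 in the alpha4-low expansions and 709, 2205 and 774 in their partners, without overlap. Its difference of -2.46 (SE 0.42) had the smallest adjusted p among the brightest probe sets of the list genes (limma adjusted p = 0.0634), and its further probe set did not pass either (limma adjusted p = 0.311). In pair 1 it read 1025 against 1103. Ido1, a tryptophan-degrading enzyme gene, read 664 in expansion 1 against 66.7 in its partner, with a difference between subclasses of -5.01 (limma adjusted p = 0.443), and was under background in expansions 3 and 4 and polyclonal sample 4. TNF and NF-kappaB genes had 9 of 14 lower and a median of -0.21. Tnfaip3, the feedback inhibitor A20, was at -0.75.

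Signalling and target genes of interleukin-2 and interleukin-10 were balanced, with 5 of 10 higher and a median of -0.00. Socs2, a feedback inhibitor of cytokine receptors, read 683, 378 and 498 in the alpha4-low expansions and 379, 194 and 205 in their partners, and 23.0, under background, against 204 in pair 1. Its difference between subclasses was 3.92 (limma adjusted p = 0.112), but its 2 other tested probe sets were between -0.18 and 0.02. Stat5b, a mediator of interleukin-2 signals, was at -1.49 in the alpha4-low comparison, its further probe set at 0.03, and its relative Stat5a was at 0.96 (limma adjusted p = 0.970) with a positive difference in all 4 pairs, polyclonal samples 2 and 4 being under background.

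Transcription factors of cytokine genes had 17 of 23 lower in the alpha4-low expansions and a median of -0.24. In 3 of 3 pairs 8 were lower, beside 15.0% of all tested probe sets, again counting every probe set and not 1 per gene. Maf, a factor that drives Il10 in T cells, read 122, 148 and 238 in these expansions and 450, 4395 and 658 in their partners, without overlap, and 4422 against 1421 in pair 1. Its difference was -2.72 (SE 0.59, limma adjusted p = 0.263), with its 3 other tested probe sets between -3.12 and -2.72, of which the smallest adjusted p was 0.0547 in limma. Batf, an AP-1 family factor, had a difference between subclasses of -5.91 (limma adjusted p = 0.178) but was under background in expansions 2 and 3 and in polyclonal sample 1. Regulators of cytokine messenger RNA decay had 7 of 13 lower and a median of -0.01. Zc3h12d, an RNase family gene, was at -1.44 and lower in each alpha4-low pair, at 357, 710 and 472 against 1513, 1344 and 1193, and did not pass (limma adjusted p = 0.747). Processing and secretion genes had 8 of 13 lower and a median of -0.07, with Adam17, whose product releases soluble TNF, at -1.03 and its 2 other tested probe sets between 0.00 and 0.53.

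**Figure D5:**
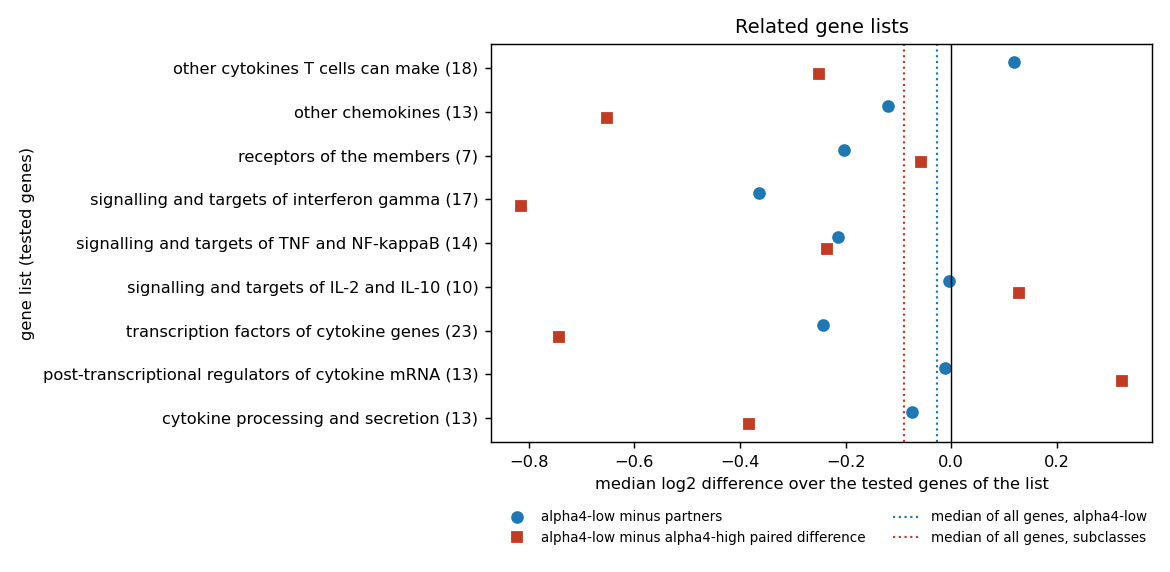
Points give the median log2 difference over the tested genes of each list, whose number stands in brackets, for the alpha4-low comparison (blue circles) and for the difference between subclasses (red squares), and the dotted lines give the medians of all genes. Interferon gamma genes have the lowest median in both, at -0.36 and -0.81, and no gene of any list passed.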

How the data were processed

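RNA from sorted cells was amplified in 2 rounds and labelled with biotin, per the labels' protocols, and hybridised to Affymetrix mouse whole-genome arrays. The deposited table holds linear intensity values, and the submitters' processing notes name MAS5 without a version. In it the 2% trimmed mean equals 500 on all 8 arrays, and this scaling by the authors was kept. Such scaling would remove a change in the total RNA of a cell. The number of arrays limits the precision.

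Values were taken as log2(value + 5), so that fold changes at low signal are understated. Left out were 64 controls and the dimmer 50% by mean log2 value (a signal up to about 45.3), which kept 22518 probe sets. Differences were tested in limma 3.58.1 under R 4.3.3, using lmFit and eBayes with trend. Mouse entered as a block, since both samples of a pair come from 1 animal. Deviations from group means correlated within mice at 0.374, 0.0771, 0.214 and 0.338. Each subclass of expansions received a separate coefficient, which left 2 residual degrees of freedom, or 3 with a single coefficient. Fewer were left with purity as a covariate or without an alpha4-low pair. P-values were two-sided and adjusted by Benjamini-Hochberg over all tested probe sets, with a threshold of 0.05. The fits were first tested on simulated data. Gene names came from the platform annotation. The background level was defined after seeing the data.

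The members, lists and tests were chosen with earlier results of these data known. Named were all members, up to 4 genes per list with the largest alpha4-low difference and up to 2 with the largest difference between subclasses, from which the text takes examples, and the 3 genes most like each of the 3 members with the largest SD over arrays. Alternatives covered pseudocount, filter, scaling, trend, block, purity, threshold and the omission of each pair.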

Additional observations from a re-analysis of the deposited data

Results flagged for a closer look

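Ifng in polyclonal sample 2 stood far above the other 3 polyclonal samples, at 10780 against 3202 to 3487. Its gap to the nearest of them was 0.93 of the whole range of the 4 log2 values, over the critical value of 0.829. Chance marks about 1 in 20 groups in this way, and 8 groups were examined. The expansion of the same mouse was also the highest of its kind.

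Tnf, Ccl3 and Il10 were higher in the alpha4-high expansion and lower in every alpha4-low expansion than in their own partners. The test of the difference between subclasses gave -0.59 for Tnf, -2.56 for Ccl3 and -2.06 for Il10, and none passed (limma adjusted p = 0.9997, 0.553 and 0.727). Both Tnf signals of pair 1 were under background, and the Tnf signals of pair 3 were nearly equal.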

How the results depend on the processing

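With 0 members past the threshold in the alpha4-low comparison, the count stayed at 0 under every alternative run except without pair 4, where Ltb passed (range 0 to 1 over the omitted pairs). For the difference between subclasses it was 0 except without pair 3 or pair 4 (range 0 to 1, again Ltb). Of 295 member values under alternatives, 95 repeat the same estimate and could not turn sign, since those alternatives change the error or the set of probe sets alone or omit a pair that the estimate does not use. Of the other 200, 11 turned sign and 3 (all Ltb) newly passed. In the alpha4-low comparison Ltb turned to 0.51 with purity as a covariate, and Ccl5 to -0.25 with quantile normalization, to -0.26 with purity and to -0.25 without pair 3 (range -0.25 to 0.25). Over all 4 pairs, with purity, Ltb turned to 0.52 and Ccl3 to 0.48, and with quantile normalization Ccl5 turned to -0.047. Over the omitted pairs the all-pairs values ranged from -1.07 to 0.11 for Ccl3, from -0.40 to 0.57 for Ccl4, from -0.00079 to 0.34 for Ccl5 and from -0.51 to 0.25 for Il10. The members with a negative alpha4-low mean numbered between 6 and 7 over the omitted pairs. In pair 4 alone, an alternative chosen after seeing the data, they numbered 6, with Ccl5 among them and Ltb not. The cause of these changes was not tested.

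Over all probe sets, the alpha4-low count of 12 became 37 at an adjusted p of 0.1, 22 among the brightest 25%, 6 with quantile normalization, 29 with median scaling, and 0 without the intensity trend (1097 at an unadjusted p under 0.05) or with no replicate block (709), and 14 to 157 over the omitted pairs. For the difference between subclasses the count of 12 became 68 at 0.1, 0 with a pseudocount of 1 (1541 at an unadjusted p under 0.05), 29 with a pseudocount of 32, 25 with no filter, 63 among the brightest 25%, 0 with quantile normalization (1554), 56 with median scaling, 0 without the trend (1572), 0 with no replicate block (1082) and 64 to 277 over the omitted pairs. Without pair 1 this difference cannot be computed. Over all pairs the count was 0 to 14. Pairing moved no member across the threshold. Low signal limits Tnf and Il2.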
